A study of Arabidopsis thaliana with 4 samples.

Results

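The genes described here are the respiratory chain genes that Arabidopsis thaliana keeps in its mitochondrial genome, in seedlings with or without aluminium. They were taken by symbol: genes of the mitochondrial genome whose lower-case name begins with nad, cox or ccb, on plant probe sets that the array's annotation pairs with exactly 1 gene. This gave 14 genes on 21 probe sets, of 13356 genes with such a probe set and 22746 plant probe sets in all. The 8 nad genes are nad1, nad2, nad4, nad4L, nad5, nad6, nad7 and nad9, the 2 cox genes are cox1 and cox2, and the 4 ccb genes are ccb203, ccb206, ccb382 and ccb452. nad1 had 7 probe sets, nad5 had 2 and the other 12 genes had 1 each. For nad3, cox3 and ccb256 the annotation held 0 probe sets of a single gene, and 3 probe sets that it pairs with a nad or cox gene and a nuclear locus together were not used here.

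The aluminium group was whole seedlings submerged for 16 h in dilute, sucrose-containing Murashige and Skoog liquid medium with 50 µM aluminium. The control group was mock-treated for the same time, and no allele or transgene is labelled for either group. Aluminium ions stop root growth in acid soil. Each group had 2 Affymetrix ATH1 arrays, described as biological replicates, each hybridised with RNA pooled from 100 seedlings, and this number of arrays limits the precision of every value below.

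Plant mitochondria keep a small genome that encodes part of their electron transport chain, while most subunits are made from nuclear genes and imported. The nad genes encode the hydrophobic membrane arm and some core subunits of complex I, which passes electrons from NADH to ubiquinone. The cox genes encode the catalytic core of complex IV, cytochrome c oxidase, and the ccb genes encode parts of the machinery that attaches haem to cytochromes c. Their transcripts are spliced and edited inside the organelle, and in plant mitochondria a poly(A) tail marks an RNA for breakdown. Per the labels the RNA was copied from poly dT primers, and how this bears on the mitochondrial transcripts was not tested.

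The arrays themselves differed. The background level of an array was the 95th percentile of its 27 probe sets against bacterial sequences, and ranged from 422 to 586. The hybridization controls, which are foreign sequences spiked into every sample, had a geometric mean intensity of 131442 and 11226 on the aluminium arrays and of 51057 and 6339 on the control arrays. Of the 8 shoot markers looked for, 3 were measured, RCA, LHCB4.1 and PRK, and their summed intensity was 4997 and 8980 on the aluminium arrays against 27064 and 18588 on the control arrays. Of the 8 root markers, 3 were measured as well, PYK10, EXPA7 and EXPA18, with sums of 629 and 2242 on the aluminium arrays against 1597 and 1745 on the controls. None of these markers was listed at 0, but of the root markers 0 and 2 were above the background level on the aluminium arrays and 1 and 2 on the controls, and EXPA7 was above it on no array. GAPDH, whose 3′ over 5′ probe set signal grows as RNA shortens, had a ratio of 3.52 and 1.70 with aluminium and 1.71 and 1.44 in controls. The part of the hybridization signal, of RNA length or of the shoot and root shares in the results below was not tested. In whole seedlings fewer cells of a type and less RNA per cell cannot be told apart.

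The treatments were compared to ask whether these transcripts differ in seedlings exposed to the metal. With 1 probe set per gene, the one with the highest mean over the 4 arrays, 10 of the 14 genes had a lower mean with aluminium and 4 a higher one. That is 71.4% lower, beside 49.6% of all plant probe sets. The groups were separate in 3 genes, cox1, ccb382 and nad5, all lower on both aluminium arrays than on either control array. In the other 11 genes the groups overlapped. No gene passed limma with Benjamini-Hochberg adjustment over all plant probe sets (adjusted p from 0.966 to 0.999), where 0 of the 22746 passed, 0% of them. At an unadjusted p under 0.05 there were 0 of the 14 genes, against 4.77% of all plant probe sets, and an exact permutation test on 2 against 2 arrays cannot give less than p = 0.333.

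Separate groups are common in these arrays. Both aluminium arrays lay below both controls in 16.2% of all plant probe sets and above them in 16.5%, so that 32.7% were separate in either direction. Among the 14 genes the shares were 21.4% lower and 0% higher. A difference of at least 2-fold with separate groups was found in 1 gene, nad5, or 7.14% of the 14, against 9.93% of plant probe sets lower and 9.66% higher with aluminium. The median difference over the 14 genes was −0.52 on the log2(intensity + 16) scale, beside 0.01 over all plant probe sets. It was −0.36 between the arrays numbered 1 and −0.21 between those numbered 2. Without control replicate 1 it was −0.13, with 8 genes lower and 6 higher.

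**Figure D1:**
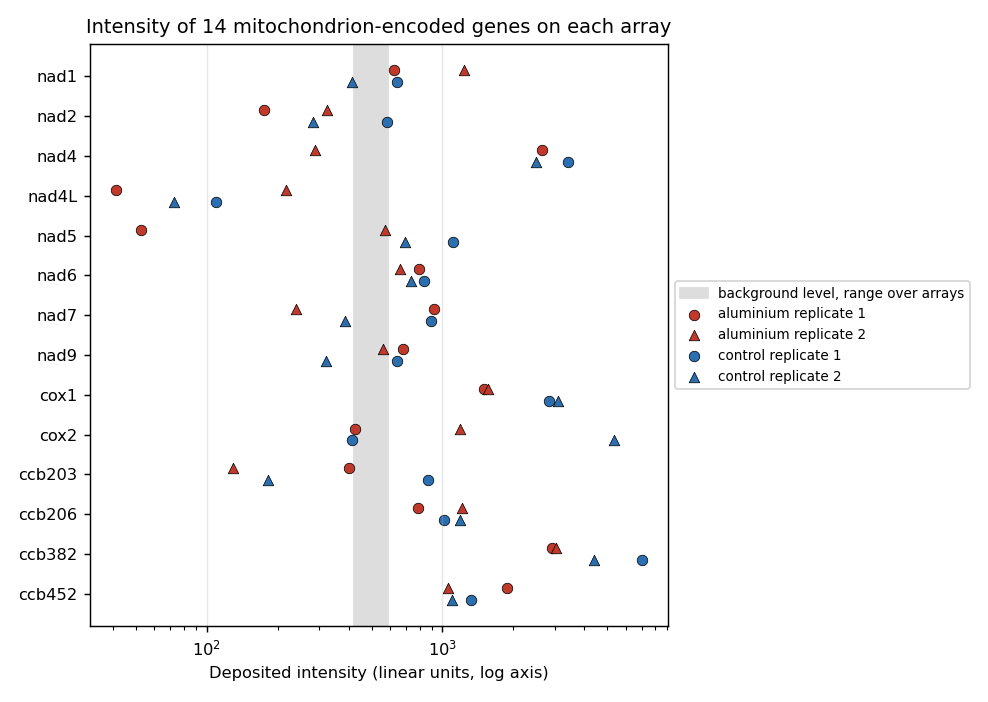
Deposited intensity (log axis) of the 14 genes on each array, with aluminium in red above control in blue, circles for replicate 1 and triangles for replicate 2. The grey band is the range over arrays of the background level, 422 to 586. The red and blue points are apart in cox1, ccb382 and nad5 and mixed in the other 11 genes.

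In complex IV the replicates of cox1 were close and those of cox2 were not. cox1 encodes the subunit in which oxygen is reduced to water. It read 1505 and 1553 on the aluminium arrays, against 2823 and 3078 on the controls, so the arrays of each treatment lay close together and the treatments lay apart. On the log2 scale this was 10.59 ± 0.03 on the aluminium arrays and 11.53 ± 0.09 on the control arrays (SD, n = 2 each). The difference was −0.94, or 1.92-fold lower, with limma's 95% interval running from −2.57 to 0.69. The interval is far wider than the spread of these 4 values because limma weighs a gene's own spread with that of all probe sets, whose prior SD was 0.81. Leaving out any 1 array kept the cox1 difference between −1.002 and −0.878.

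cox2 encodes the subunit that takes electrons from cytochrome c. It read 427 and 1192 on the aluminium arrays, against 413 and 5325 on the controls. Replicate 1 was low and replicate 2 high in both treatments, and the groups overlapped. The difference of cox2 was −1.05 (standard error 1.32) with all arrays, and 0.77 without control replicate 2.

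Among the cytochrome c maturation genes, ccb382 was the 1 gene with separate groups. RefSeq lists ccb382, ccb203 and ccb206 as ccmFN1, ccmFN2 and ccmB, matched here by a coding length equal to the number in the older symbol. ccmFN1 and ccmFN2 are parts of the haem lyase, a protein that plants in the cabbage family encode as separate pieces, and ccmB belongs to an ABC transporter of the same pathway. ccb382 read 2923 and 3025 on the aluminium arrays, against 7017 and 4379 on the controls. Both aluminium arrays were lower than both controls, by a mean of −0.90 on the log2 scale (standard error 0.69, interval from −2.59 to 0.80). Leaving out control replicate 1 gave −0.56, and leaving out control replicate 2 gave −1.23.

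ccb203 read 403 and 129 on the aluminium arrays, against 871 and 181 on the controls. Here the replicate 1 array was above the replicate 2 array in both treatments, and the difference was −0.76 with a standard error of 1.02. ccb206 read 787 and 1213 on the aluminium arrays and 1014 and 1181 on the controls, with a difference of −0.16 (standard error 0.69). ccb452, known as ccmFC and another part of the haem lyase, read 1878 and 1056 on the aluminium arrays and 1316 and 1097 on the controls. It was the 1 ccb gene with a higher mean with aluminium, by 0.23 with a standard error of 0.71, and its groups overlapped. Its probe set carries the suffix _s_at, which the manufacturer gives to probes shared between transcripts, and so do those used for nad5 and nad6. The part of other transcripts in these 3 values was not tested.

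The complex I genes spanned differences from −2.15 to 0.76. Of the 8 nad genes, 5 had a lower and 3 a higher mean with aluminium, with a median of −0.21. That is 62.5% lower, beside 49.6% of all plant probe sets. nad5, a proton-pumping subunit of the membrane arm, read 52.8 and 570 on the aluminium arrays, against 1109 and 693 on the controls. Its groups were separate, but aluminium replicate 1 stood far below aluminium replicate 2. The nad5 difference was −2.15 (standard error 1.14, interval from −4.95 to 0.64), and without aluminium replicate 1 it was −0.61. The other nad5 probe set read 243 and 122 on the aluminium arrays and 340 and 191 on the controls, below background on all 4 arrays, with a difference of −0.52.

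nad4, another proton-pumping subunit, read 2641 and 288 on the aluminium arrays, against 3418 and 2496 on the controls. Aluminium replicate 2 alone was low, while aluminium replicate 1 lay between the 2 controls. The nad4 difference was −1.71 with a standard error of 1.14, and it was −0.14 without aluminium replicate 2. nad2, the third pumping subunit of this arm, read 174 and 323 on the aluminium arrays and 582 and 283 on the controls, with a difference of −0.74 and 1 array above background. With 1 array left out, the nad2 difference ran from −1.23 to −0.24.

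nad6 encodes a small membrane subunit next to the pumps. It was the steadiest complex I gene, with 792 and 663 on the aluminium arrays against 834 and 732 on the controls. All 4 arrays were above background, and the difference was −0.11 (interval from −1.75 to 1.53). nad4L, the smallest of these membrane subunits, read 41.3 and 218 on the aluminium arrays and 109 and 72.8 on the controls. All 4 of its values were below the background level, so the difference of 0.13 (standard error 0.90) describes signal at that level.

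nad7 and nad9 encode core subunits of the peripheral arm, which carries electrons to ubiquinone. nad7 read 921 and 238 on the aluminium arrays and 891 and 384 on the controls, with replicate 1 above replicate 2 in both treatments. Its difference was −0.31 with a standard error of 0.93. nad9 read 680 and 562 on the aluminium arrays against 644 and 320 on the controls, a difference of 0.43 (standard error 0.72) with overlapping groups.

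**Figure D2:**
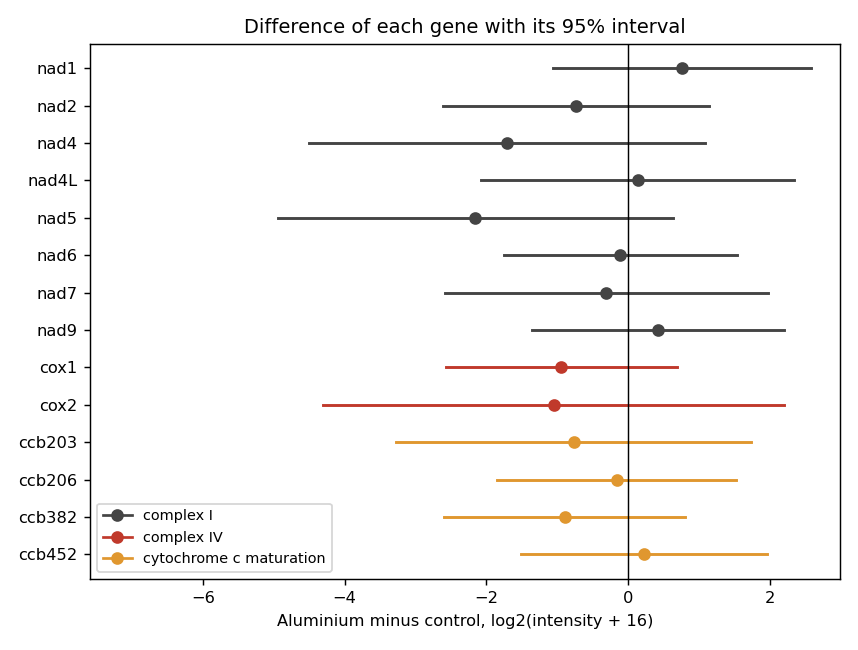
Difference between aluminium and control for each of the 14 genes on the log2(intensity + 16) scale, with limma's 95% interval as a line and colours for the 3 roles. The points run from −2.15 for nad5 to 0.76 for nad1, and the interval spans 0 in all 14.

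nad1 encodes the subunit at the junction of the arms, and its coding sequence is assembled by trans-splicing from separate transcripts, as are those of nad2 and nad5. Its 7 probe sets gave differing results. The brightest, 257322_at, read 624 and 1235 on the aluminium arrays against 638 and 412 on the controls, a difference of 0.76 (standard error 0.74). It ran from 0.27 to 1.24 with 1 array left out. The next, 257321_at, read 673 and 861 on the aluminium arrays and 379 and 879 on the controls, a difference of 0.39. Both were above background on 3 of 4 arrays, and in both the groups overlapped.

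The other 5 nad1 probe sets were dimmer. 257327_at read 43.9 and 145 on the aluminium arrays, against 338 and 848 on the controls. It was lower on both aluminium arrays, by −2.49 (interval from −4.63 to −0.36, unadjusted p = 0.0285, adjusted p = 0.966 by limma), and only control replicate 2 was above background. 257323_at was lower on both aluminium arrays too, at 24.6 and 8.17 against 239 and 30.6, all below background. 257329_at read 86.8 and 482 on the aluminium arrays and 537 and 100.3 on the controls, with the high value in replicate 2 of one treatment and in replicate 1 of the other. 257324_at and 257325_at were below background on all 4 arrays, with differences of −0.19 and −0.31. Which exon or intron of nad1 each probe set covers was not analysed here.

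**Figure D3:**
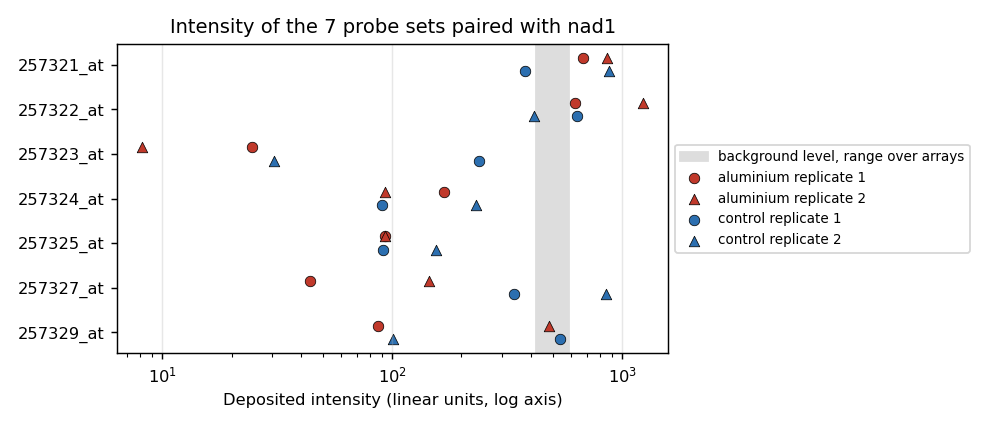
Deposited intensity (log axis) of the 7 probe sets paired with nad1, with aluminium in red above control in blue, circles for replicate 1 and triangles for replicate 2, and the background range in grey. 257322_at and 257321_at are brightest. Both red points lie left of both blue points in 257323_at and 257327_at.

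Over all 21 probe sets 16 were lower and 5 higher with aluminium, or 76.2% lower beside 49.6% of all plant probe sets. The groups were separate in 5, all lower, which is 23.8% beside 16.2% of all plant probe sets. The median over probe sets was −0.31. The nad1 probe sets share 1 gene and are not independent of one another.

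Of the 14 genes, 9 were above background on each aluminium array, against 12 and 8 on the control arrays. Of all plant probe sets, 35.1% and 42.0% were above it on the aluminium arrays and 45.3% and 39.8% on the controls. Control replicate 1 thus had the highest share over all plant probe sets as well. The 5 genes above it on all 4 arrays were cox1, ccb206, ccb382, ccb452 and nad6, and nad4L was above it on none. That is 7.14% of the 14 genes above it on no array, beside 34.7% of all plant probe sets.

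The 2 aluminium arrays differed by more than 1 on the log2 scale in 6 genes, and the 2 control arrays in 3. The median gap was 0.90 for the aluminium pair and 0.64 for the control pair, while the median difference between treatments was 0.75 in size. The difference exceeded both gaps in 2 genes, cox1 and ccb382. That is 14.3% of the 14, beside 19.2% of all plant probe sets.

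The replicate numbers were not taken to pair the arrays. Set against the control of the same number, 10 genes were lower in replicate 1 and 9 in replicate 2. Over the 22746 plant probe sets the counts were 11040 and 11639. Lower in both were 6 genes, cox1, ccb203, ccb382, nad4, nad5 and nad6, and nad9 alone was higher in both. These are 42.9% and 7.14% of the 14 genes, beside 25.7% and 26% of all plant probe sets. The other 7 changed sign between the numbers. The gap was uneven in nad5, at −4.03 in replicate 1 and −0.28 in replicate 2, and in nad4, at −0.37 and −3.05. In cox1 it was −0.90 and −0.98. The lowest value of the 4 arrays was on aluminium replicate 1 in 6 genes and on aluminium replicate 2 in 5, and the highest was on control replicate 1 in 6. These counts were not made over all plant probe sets, so they do not tell whether the 14 genes differ from other genes.

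**Figure D4:**
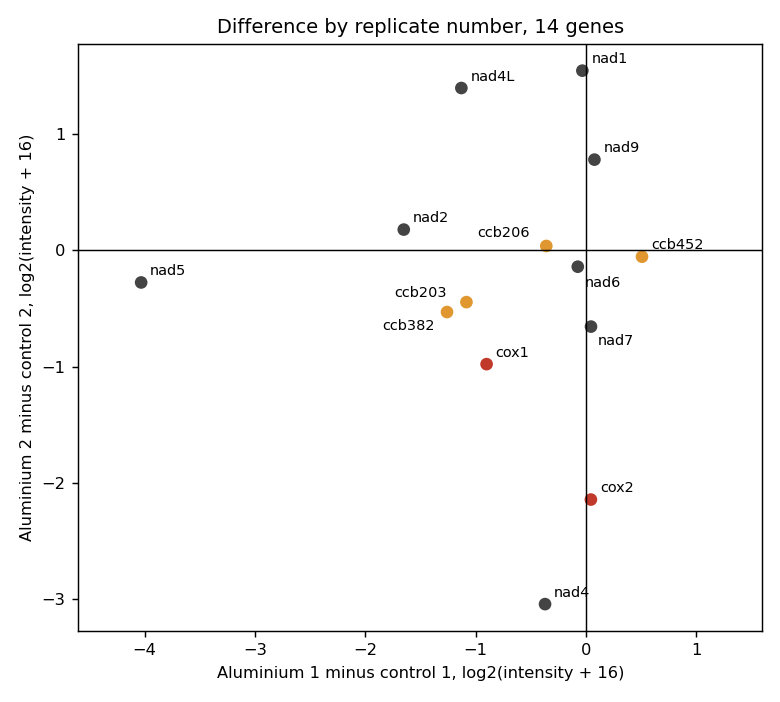
Difference between aluminium and control for replicate 1 (x axis) and replicate 2 (y axis) on the log2(intensity + 16) scale, 1 point per gene, with colours for the roles as in the plot of differences. The 6 genes at the lower left are below 0 on both axes, with cox1 at −0.90 and −0.98, and nad9 alone lies in the upper right. The numbers were not taken to pair the arrays.

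Genes that follow one another on the mitochondrial genome can be set side by side. In RefSeq assembly TAIR10.1, used here for names and gene order and listing 1 position per gene, cox2 is followed by ccmB, the gene of ccb206. Their differences were −1.05 and −0.16. nad2 is followed by nad6, with −0.74 and −0.11. Other neighbours had differences of opposite sign, though not firmly. nad1 is followed by cox1, with 0.76 (standard error 0.74) and −0.94. The nad1 value is that of its brightest probe set. Of its 7 probe sets, 5 were lower with aluminium like cox1, with a median of −0.19. ccmFC, the gene of ccb452, is followed by nad4, with 0.23 (standard error 0.71) and −1.71. Without aluminium replicate 1 the difference of ccb452 was −0.18, the same sign as nad4. nad4 is followed by mttB, a membrane protein of the Tat type that the array annotation calls orfX, which read 2797 and 1821 on the aluminium arrays and 3578 and 1882 on the controls. The difference of orfX was −0.20 with a standard error of 0.74, beside −1.71 for nad4.

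matR, the gene before nad5 in this order, encodes a maturase for splicing and lies inside an intron of nad1. It read 39.9 and 38.5 on the aluminium arrays, against 986 and 75.4 on the controls. Both aluminium arrays were lower, and control replicate 1 was the 1 array above background. The matR difference was −2.45 (standard error 1.21), and −0.73 without control replicate 1, beside −2.15 for nad5 and −0.31 for nad7, the gene after it. matR and orfX were the 2 other mitochondrion-encoded genes with a probe set of a single gene, and neither passed limma (adjusted p = 0.966 for matR and 0.997 for orfX). Both of their probe sets carry the suffix _s_at too, and the part of other transcripts in their values was not tested.

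Nuclear genes of the same pathway, with nuclear factors that act on mitochondrial transcripts, were taken from 8 lists with 128 members. Of these members 59 had a probe set of a single gene. Of the 59, 40 had a higher and 19 a lower mean with aluminium. That is 32.2% lower, beside 49.6% of all plant probe sets. Among the 59, 0 passed limma over all plant probe sets. Their median difference was 0.24, beside −0.52 for the 14 mitochondrion-encoded genes. Between arrays numbered 1 the nuclear median was 0.61, and between those numbered 2 it was −0.04. The direction turned without control replicate 1, where 25 were higher and 34 lower, with a median of −0.13. The groups were separate in 7 nuclear genes higher and 5 lower with aluminium, 11.9% and 8.47%, beside 16.5% and 16.2% of all plant probe sets. Of the 5 lower, 4 were factors that act on mitochondrial transcripts.

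In complex I, 16 of 19 measured nuclear genes had a higher mean with aluminium and 3 a lower one, with a median of 0.38 beside −0.21 for the nad genes. That is 15.8% lower, beside 49.6% of all plant probe sets. Without control replicate 1 there were 10 higher and 9 lower, with a median of 0.07, and the nad genes had 4 higher and 4 lower, with a median of 0.13. AT3G12260, a small accessory subunit, read 1079 and 3607 on the aluminium arrays and 49.2 and 2791 on the controls, so that control replicate 1 alone was low. Its difference was 2.22 with a standard error of 1.79, and −0.50 without that array. AT5G47890, another accessory subunit, read 90.0 and 101 on the aluminium arrays against 240 and 313 on the controls. Its groups were separate, below background, with a difference of −1.38.

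In complex III with cytochrome c, 10 of 13 had a higher mean and 23.1% a lower one, with a median of 0.41. Without control replicate 1 there were 5 higher and 8 lower, with a median of −0.12. CYTC-1, one of 2 cytochrome c genes, read 14627 and 22994 on the aluminium arrays and 3812 and 19905 on the controls. Its difference was 1.07 with a standard error of 0.98, and AT3G10860, a small subunit, stood at 1.08 with 1.11. Without control replicate 1 they were −0.12 and −0.27. Complex IV with its assembly factors had 7 of 9 higher, or 22.2% lower, and a median of 0.27, beside −0.94 and −1.05 for cox1 and cox2. Without control replicate 1 there were 3 higher and 6 lower, with a median of −0.26. AT3G62400, above background on 1 array, stood at 1.41, and AT3G15640, a form of subunit 5b, at 0.96 with all arrays and −0.27 without control replicate 1. Complex II had 2 of 4 higher with a median of 0.00, with SDH1-1 at −0.13 (standard error 1.41). SDH1-2 stood at 1.14 (standard error 1.04), but it was below background on all 4 arrays and stood at −0.17 without aluminium replicate 2. The ATP synthase had 2 of 5 higher with a median of 0.00, with AT5G47030 at 0.64, and AT1G51650 at 1.14 with all arrays and −0.58 without control replicate 1. CCMH, the 1 measured nuclear gene of cytochrome c maturation, of 3, stood at −0.46 with all 4 values below background, and 0 of 5 alternative oxidase genes had a probe set of a single gene.

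Nuclear factors that act on mitochondrial transcripts had the widest range among the nuclear lists, from −2.85 to 2.35, with a median of −0.44 over 8 of 28 members. NMAT4 (AT1G74350), a maturase needed to splice nad1, read 35.3 and 108 on the aluminium arrays against 788 and 394 on the controls. Both aluminium arrays were lower, by −2.85 with a standard error of 0.81, and control replicate 1 was the 1 array above background. OTP87, which edits nad7 and atp1 transcripts, read 190 and 97.9 on the aluminium arrays, against 887 and 832 on the controls, a difference of −2.51 with both aluminium values below background. The mitochondrial polynucleotide phosphorylase (AT5G14580), which degrades RNA, was higher on both aluminium arrays, at 517 and 410 against 64.6 and 92.8. Its difference was 2.35, with every value below background. These 3 of 8 were the members of the list at an unadjusted p under 0.05, beside 4.77% of all plant probe sets, and none passed limma over all plant probe sets (adjusted p = 0.966 each). The groups were separate in 4 of the 8 lower and 1 higher, 62.5% in either direction beside 32.7% of all plant probe sets, and 5 of the 8 were above background on no array.

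**Figure D5:**
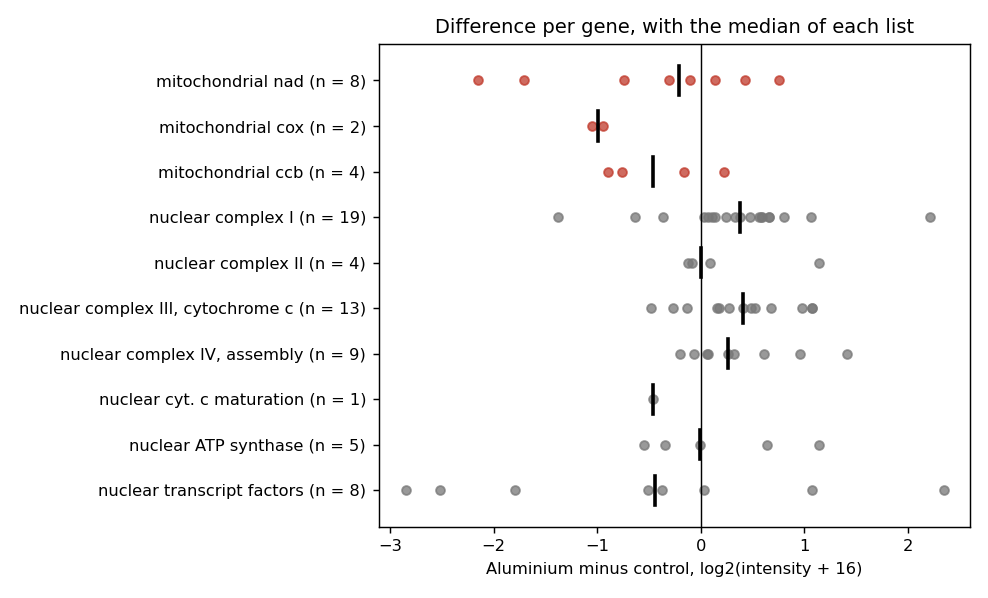
Difference between aluminium and control on the log2(intensity + 16) scale, 1 point per measured gene, with mitochondrion-encoded genes in red, nuclear lists in grey and a black bar at each list's median. The medians of nad, cox and ccb are −0.21, −0.99 and −0.46, and those of nuclear complexes I, III and IV are 0.38, 0.41 and 0.27. Without control replicate 1 they are 0.13, −1.94 and 0.03, and 0.07, −0.12 and −0.26.

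Likeness to these genes was measured against their mean profile, the average over the 14 genes of each gene's log2 values after its own mean was taken off. That profile stood at −0.30 and −0.22 on the aluminium arrays and at 0.43 and 0.09 on the control arrays. Of the members, ccb382 lay nearest to it, at a root mean square distance of 0.22, and cox2 farthest, at 1.51. Among 10943 other genes at least as bright as the dimmest member, AT2G24320 was nearest over the 4 arrays, at 0.02, followed by AT5G47610 and AT3G10820, at 0.03 each. That dimmest member was nad4L, below background on all 4 arrays. With so many genes and only 4 arrays, close matches can arise for many profiles, and a relation of these genes to the members was not tested.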

How the data were processed

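Transcript levels were measured on 4 Affymetrix ATH1 arrays, 2 with aluminium and 2 controls, grouped by sample title. The deposited values are linear intensities, 1 per probe set and array. Per the submitters' processing notes GCOS and RMA were used; what each did is not stated there. After trimming 2% from both ends, every array averaged 500.0, so the arrays had been scaled to a common mean. Of 22810 probe sets, 64 control probe sets were left out. The annotation paired 13513 plant probe sets with 1 gene, 503 with several and 8730 with none. RefSeq (TAIR10.1) matched 13436 by Entrez identifier. None of the 21 probe sets described here matched that way, and 10 of the 14 genes matched by symbol.

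Intensities were transformed to log2(intensity + 16), which understates changes of dim probe sets, with no filter. The treatments were compared in R 4.3.3 by limma 3.58.1, with group as the only term, two-sided tests and Benjamini-Hochberg adjustment over all plant probe sets at 0.05. The fit was run on simulated data with known changes, at a small spread and at the prior SD of these arrays. Estimates were required to lie near the known changes at both spreads. Recovery past the threshold was required only at the small spread, so it does not speak to recovery in these data. Alternatives changed the scaling, pseudocount, filter, spread model, replicate block and arrays used. Plots were drawn with matplotlib 3.10.9. Named genes were all members, matR and orfX, up to 2 members with the largest difference in each nuclear list, and the 3 nearest profiles. AT5G14580 was named after its value was seen. The genes and lists were chosen with earlier results of these data known.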

Additional observations from a re-analysis of the deposited data

Results flagged for a closer look

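Aluminium replicate 1 exceeded both control arrays in signals that do not come from plant messenger RNA. Its hybridization controls were at 2.57 times the level of control replicate 1, the brighter of the controls. Its 25S ribosomal RNA probe set was at 2.58 times its level there, with intensities of 3511 against 1362. Control replicate 1 in turn exceeded both arrays numbered 2. Its hybridization controls stood at 51057, against 11226 on aluminium replicate 2 and 6339 on control replicate 2. For the 25S probe set these 2 arrays read 533 and 416. Aluminium replicate 1 held the lowest value of the 4 arrays in 6 of the 14 genes and the highest in 3. Aluminium replicate 2 held the lowest in 5, and these counts were not made over all plant probe sets. Among the 6 were nad5 and nad4L, and nad4L was below background on all 4 arrays. A link between these values and the control signals was not tested.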

How the results depend on the processing

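With 2 arrays per group the 95% interval reached 1.63 to 3.25 to each side of a difference on the log2 scale (median 1.85). Differences smaller than their interval's reach could not be told from 0 even before adjustment. Larger ones could still fail after adjustment, as did the nad1 probe set 257327_at at −2.49 (adjusted p = 0.966 by limma). No gene of the 14 passed limma under any alternative run: the replicate block, median centring, quantile normalization, pseudocounts of 1 and 64, leaving out the dimmest 25% of probe sets, a spread that follows the mean with and without robust estimation, and leaving out each array. The smallest adjusted p among them was 0.403, without aluminium replicate 2. With the replicate block, 0 passed. In this balanced design the block cannot change a difference, so the median stays at −0.52 by construction. The replicate gaps of the treatments correlated at 0.09 across plant probe sets, and the labels name no block, so the numbers were not taken to pair the arrays. The hybridization controls and the 25S signal were nevertheless higher on both arrays numbered 1 than on both numbered 2. Whether arrays of the same number were handled together was not tested.

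Median centring separated the groups in 1 gene higher with aluminium, nad1, and left 3 lower. Without the dimmest 25%, which removed nad4L, the median was −0.74. Counting all 21 probe sets, chosen after seeing the data, gave 5 separate and lower, 3 of them at least 2-fold, and a median of −0.31. The 3 are 14.3% of the 21, beside 9.93% of all plant probe sets. Of the 3, 2 were nad1 probe sets, 257323_at and 257327_at, above background on 0 and 1 of the 4 arrays. With 1 array left out, the median ranged from −0.54 to −0.13. It was −0.13 without control replicate 1, −0.32 without aluminium replicate 1 and −0.31 without aluminium replicate 2. Separate groups then numbered 4 to 8 lower and 1 to 3 higher, and at least 2-fold 2 to 5 lower and 0 to 2 higher, since fewer arrays can overlap. In the same comparisons 30.9% to 35% of all plant probe sets were separate and lower and 31.1% to 37.8% separate and higher, and 14.8% to 21.6% and 14.4% to 21.5% were so by at least 2-fold.

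Leaving out arrays was applied to the nuclear lists after seeing the data. The direction of single genes reversed in 11 of the 56 values with an array left out, in 8 genes, and in 0 of the 83 values under the other settings, where those with the block cannot change. The ranges were −1.85 to 0.32 for ccb203, −0.47 to 0.15 for ccb206, −0.18 to 0.64 for ccb452, −2.87 to 0.77 for cox2, −0.88 to 1.15 for nad4L, −0.23 to 0.018 for nad6, −1.25 to 0.64 for nad7 and −0.057 to 0.92 for nad9. The causes were not tested.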
